A study of Drosophila melanogaster with 9 samples.

Results

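A group of 70 Drosophila genes whose symbol in the array annotation is a CG number, and that gave higher hybridization intensity in the mitotic region of the testis than in the meiotic and the post-meiotic region, is described here. Each is represented by 1 probe set whose annotation gives exactly 1 symbol made of CG and digits. The genes were chosen by intensity, a probe set being taken when its mean of 3 mitotic arrays lay at least 1.5 on the log2 scale (2.83-fold) above the mean of the 3 meiotic arrays and at least 1.5 above the mean of the 3 post-meiotic arrays, with post-meiosis minus meiosis below 1. The 70 probe sets belong to 70 genes, out of 5209 CG-numbered genes (5667 probe sets) and 11982 genes with a single symbol (18769 probe sets in all, with those that have several symbols or none). Because these 9 arrays chose the genes, their differences between phases are given as a description and without a test.

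In the Drosophila testis, stem cells at the apical tip divide to give spermatogonia, which multiply by mitosis inside an envelope of somatic cyst cells, then stop dividing and grow as spermatocytes. Dividing germ cells need DNA replication, new ribosomes and the RNA pathway that silences transposons, while many genes used in sperm formation are first transcribed in spermatocytes. A CG number is the systematic identifier of a predicted gene, which serves as the symbol until the gene is given a name.

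The arrays were Affymetrix Drosophila Genome 2.0 arrays hybridized with total RNA of the wild-type TEMPE T strain, which all samples share, with no other allele or agent. The mitotic samples came from the apical tip, the meiotic samples were cells pressed out of the middle (proximal) region without the sheath, and the post-meiotic samples came from the detached distal region, with 3 biological replicates of each phase. Each replicate drew on 250 to 500 testes of virgin males aged 6 to 10 days, so a replicate is a pool of animals. A phase is therefore a dissected region enriched for that phase, with somatic cells and some germ cells of the phases next to it, and fewer cells of a type cannot be told apart from less RNA per cell in these bulk samples.

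Values are log2 hybridization intensities. The median intensity of an array lay between 6.36 and 6.54, and replicates correlated with r of 0.993 to 0.998 across probe sets. In the limma fit over all 9 arrays, 26.3% of the 18769 probe sets were higher in mitosis than in meiosis and 29.5% were higher in mitosis than in post-meiosis, while 24.3% and 49.6% were lower (Benjamini-Hochberg adjusted p under 0.05). The last share depends on the scaling, since the 5541 higher and 9309 lower probe sets against post-meiosis became 5802 and 5873 under cyclic loess. All 70 genes were among those called in both comparisons, which the way they were chosen made likely, and nothing is read from that count. Both comparisons share the 3 mitotic arrays.

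The 70 genes were on average bright, and they varied more in their post-meiotic than in their meiotic intensity relative to mitosis. Mitotic means ran from 6.62 to 12.47 with a median of 9.23, meiotic means from 4.78 to 10.90 with a median of 7.42, and post-meiotic means from 4.39 to 8.63 with a median of 6.30. The difference between mitosis and meiosis spanned a narrow range, 1.51 to 2.47 with a median of 1.79 (3.46-fold), whereas the difference between mitosis and post-meiosis reached from 1.504 to 6.99 with a median of 2.86. No detection call was used, so a dim mean is not shown to be above background, and no fold is given against post-meiosis where the mean there was under the array median. Over all 18769 probe sets the same medians were -0.06 and -0.21. The meiotic threshold was the nearer one for 64 of the 70 genes and the post-meiotic threshold for 6. Both ranges were cut at 1.5 by the choice. Among all CG-numbered probe sets, 805 lay past 1.5 against post-meiosis and 118 against meiosis. Whether the wider post-meiotic range is particular to the 70 genes was not tested.

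**Figure D1:**
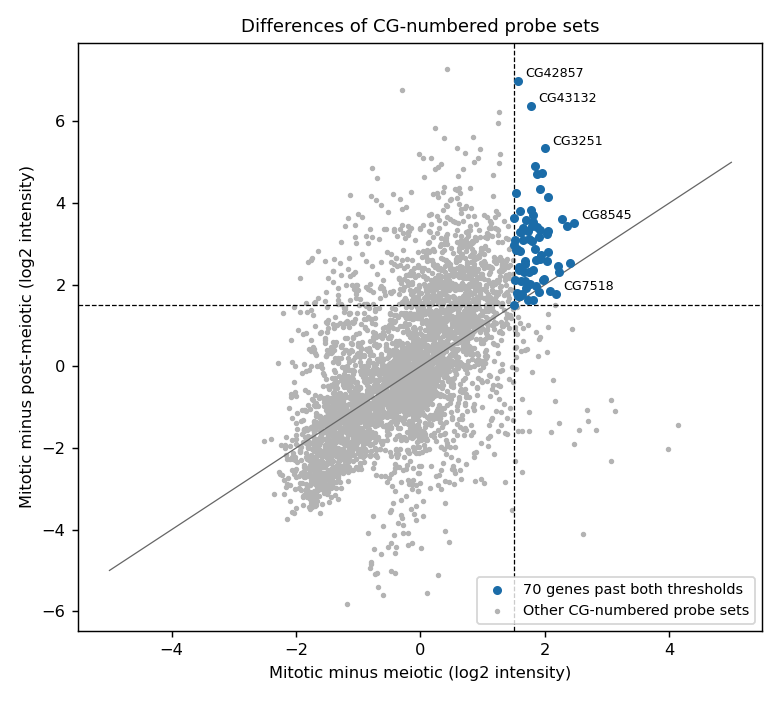
Mitotic minus post-meiotic difference against mitotic minus meiotic difference (both in log2 intensity, means of 3 arrays) for the 5667 CG-numbered probe sets, with the 70 chosen genes as larger points, the thresholds of 1.5 as dashed lines and equal differences as a solid line. The 70 genes form a narrow band, from 1.51 to 2.47 along the horizontal axis and stretched from 1.504 to 6.99 along the vertical one.

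The name of the group should not be taken to mean that these genes were silent elsewhere. The meiotic mean of 58 of the 70 genes was above the median probe set of every meiotic array, and the post-meiotic mean of 32 was above the median probe set of every post-meiotic array. All 70 mitotic means were above the median of every mitotic array. In each of the 70 genes every mitotic array stood above all 6 other arrays, a pattern that 21.0% of all probe sets showed. The way the genes were chosen made this likely, and nothing is read from that count. The gap between the lowest mitotic and the highest other array was 0.996 to 2.19 with a median of 1.54.

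The condition that post-meiosis minus meiosis be below 1 removed no CG-numbered probe set. Of the 118 CG-numbered probe sets past the meiotic threshold, 48 missed the post-meiotic one, and of the 805 past the post-meiotic threshold, 735 missed the meiotic one. The thresholds took 70 of 5667 probe sets with a CG number (1.24%), against 251 of 7980 with another single symbol (3.15%). Of the 70 CG-numbered genes, 37 (52.9%) were lower in post-meiosis than in meiosis by more than 1, against 74 (29.5%) of the 251 probe sets with other names. The median of post-meiosis minus meiosis was -1.07 in the CG-numbered genes and -0.53 in those with other names. That difference was not tested because the same arrays chose both. Over all probe sets the median was 0.13, and the share lower by more than 1 was not counted there. The 2 groups were not compared at like meiotic intensity. Each holds probe sets dim in meiosis, such as CG4570 at 4.78 and jumu at 3.76.

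The chosen genes with other names also reached larger differences, when each gene is ranked by the smaller of its differences against meiosis and post-meiosis, since 29 of them stood above every CG-numbered gene. The 4 that led them were Phs, whose mitotic mean was 3.68 above meiosis and 3.91 above post-meiosis, lola, a transcription factor with many isoforms that is needed in germline stem cells (3.45 and 4.21), jumu, a forkhead factor (3.22 and 3.24), and E(spl)m3-HLH, a target of Notch signalling (3.30 and 3.21).

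**Figure D2:**
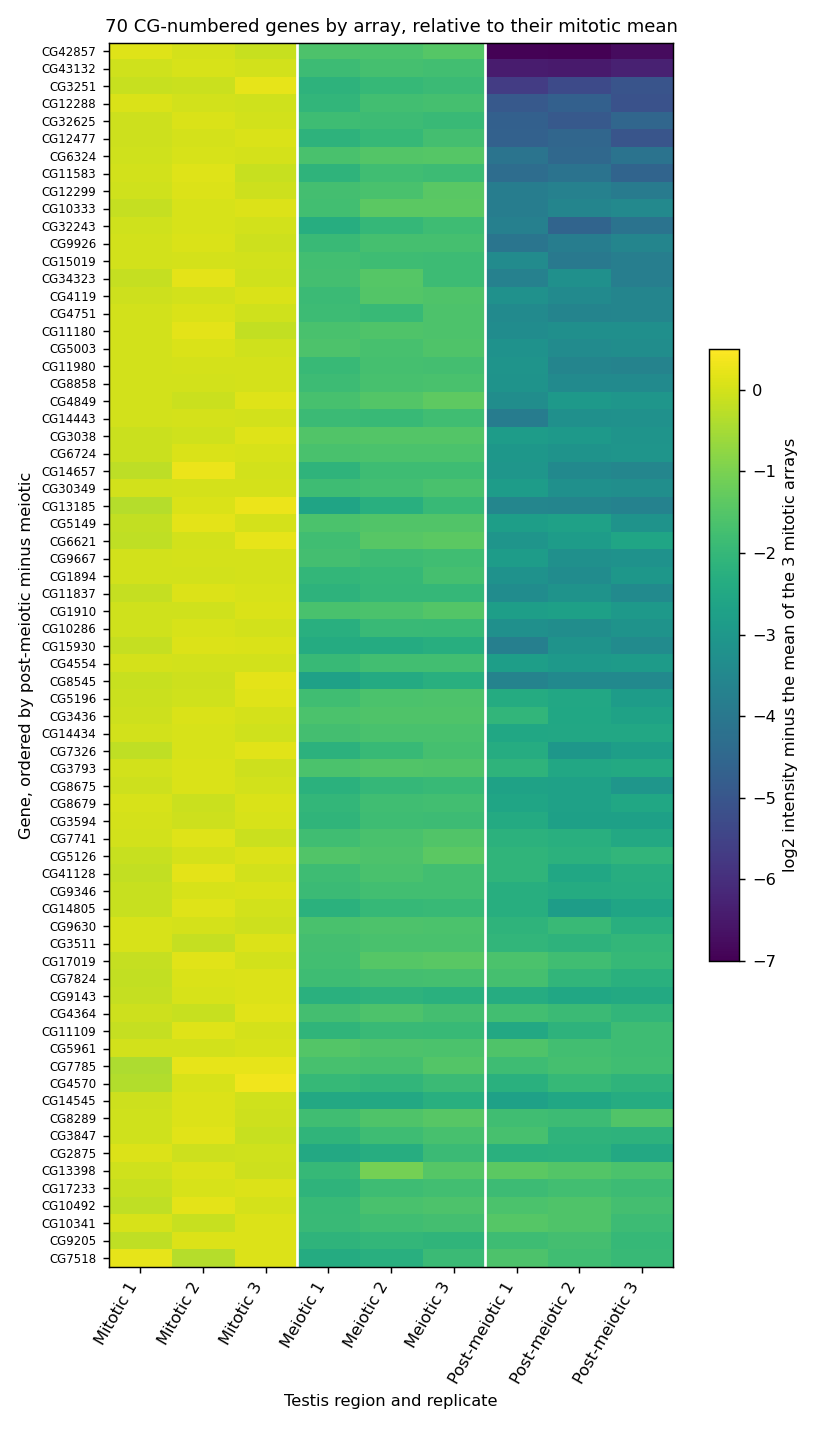
Log2 intensity of the 70 genes in each of the 9 arrays, minus the mean of the gene over the 3 mitotic arrays, with genes ordered by post-meiosis minus meiosis from the lowest at the top. The meiotic columns are similar from top to bottom, while the post-meiotic columns grade from CG42857, whose mitotic mean was 6.99 above post-meiosis, to CG7518, where it was 1.78 above.

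The RefSeq gene table matched 69 of the 70 genes by gene identifier, all 69 protein coding and all still with the CG number as their symbol, and CG43132 was not matched. From its synonyms, 17 of the genes were picked by hand as having a name of known role or protein family. The other 53 were not picked, although some of them have a synonym of that kind too, such as dLEM3 of CG8679. These 17 names were looked up after the values had been seen.

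Among the 17, 5 carry names of factors that build ribosomes. Their differences ran from 1.63 to 2.47 against meiosis and from 2.10 to 4.90 against post-meiosis. CG8545, with the synonym NOP2, which in yeast and human methylates the RNA of the large ribosomal subunit, ranked first of the 70 genes by the smaller of its differences. Its intensity was 9.66, 9.73 and 9.98 in mitotic, 7.10, 7.36 and 7.52 in meiotic and 6.14, 6.35 and 6.34 in post-meiotic arrays. The 3 phases did not overlap, each later phase being lower, with a mitotic mean 2.47 above meiosis (5.53-fold) and 3.52 above post-meiosis.

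CG11837, with the synonym Dim1, an enzyme that in yeast dimethylates the RNA of the small subunit, had intensities of 9.40, 9.68 and 9.62 in mitotic, 7.43, 7.56 and 7.57 in meiotic and 6.21, 6.41 and 6.16 in post-meiotic arrays. Its 3 phases were separate too, with a mitotic mean 2.05 above meiosis and a meiotic mean 1.26 above post-meiosis. CG12288, with the synonym RBM34, an RNA-binding protein, read 9.60, 9.53 and 9.49 in mitotic, 7.47, 7.77 and 7.83 in meiotic and 4.63, 4.85 and 4.43 in post-meiotic arrays. Here the arrays of post-meiosis were the ones far apart, since the meiotic mean was 3.05 above post-meiosis while the mitotic mean was 1.85 above meiosis.

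CG11583, with the synonym dBRX1, a large-subunit assembly factor in yeast, showed the same shape with means of 9.11 ± 0.13, 7.18 ± 0.16 and 4.76 ± 0.23 in mitosis, meiosis and post-meiosis (SD, n = 3 each). CG9630, with the synonym DDX55, an RNA helicase whose yeast relative acts in large-subunit assembly, was dimmer and flatter, with means of 7.54 ± 0.07, 5.91 ± 0.03 and 5.44 ± 0.18. Its meiotic mean was 0.48 above its post-meiotic mean. A sixth gene, CG9143, with the helicase synonym DmRH13, read 7.03, 7.25 and 7.32 in mitotic, 4.96, 5.04 and 4.98 in meiotic and 4.83, 4.66 and 4.76 in post-meiotic arrays, so that its mitotic mean was 2.21 above meiosis and its meiotic mean 0.24 above post-meiosis.

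CG15930 carries the synonym Tdrd5l, a Tudor domain protein of Drosophila male germ cells that lies in cytoplasmic granules. It read 10.59, 10.87 and 10.83 in mitotic, 8.39, 8.38 and 8.47 in meiotic and 7.002, 7.61 and 7.38 in post-meiotic arrays. The meiotic arrays were close together and well apart from both other phases, and the mitotic mean was 2.35 above meiosis (5.10-fold) and 3.43 above post-meiosis (10.8-fold). CG15930 is X-linked, as are CG2875, CG8675 and CG14805, the 3 X-linked genes that came next in this ranking.

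The 3 splicing factors were well inside the post-meiotic threshold, and CG10333 and CG4849 were near the meiotic one. Their differences were 1.51 to 1.80 against meiosis and 3.08 to 3.63 against post-meiosis. CG10333, with the synonym DmPrp28, a helicase that in yeast exchanges small nuclear RNAs at the start of splicing, read 10.25, 10.46 and 10.52 in mitotic, 8.64, 9.02 and 9.03 in meiotic and 6.58, 6.82 and 6.93 in post-meiotic arrays. All phases were separate, and the meiotic mean was 2.12 above the post-meiotic mean. CG4849, with the synonym Snu114, a GTPase of the spliceosome in yeast, had means of 10.05 ± 0.12, 8.52 ± 0.17 and 6.94 ± 0.19, and CG9667, with the synonym ISY1, a spliceosome protein in yeast, had means of 9.09 ± 0.01, 7.30 ± 0.05 and 6.01 ± 0.20 in mitosis, meiosis and post-meiosis (SD, n = 3 each).

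Of the 3 genes with names of ubiquitin ligase parts, CG5003 was much lower in post-meiosis than in meiosis. CG5003 (synonym FBXL8) and CG5961 (synonym FBXO9) are named as F-box proteins, which choose the targets of ubiquitin ligases, and CG17019 (synonym dRNF34) is named as a RING-type ligase. Their mitotic means exceeded meiosis by 1.62, 1.57 and 1.55. The meiotic mean was then 1.68 above post-meiosis in CG5003, whereas it was 0.15 and 0.25 above in CG5961 and CG17019.

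The remaining 4 of the 17 had names of other kinds. CG1894 (synonym HAT), named as a histone acetyltransferase, had a mitotic mean of 10.38 ± 0.01, a meiotic mean of 8.48 ± 0.17 and a post-meiotic mean of 7.20 ± 0.16. CG41128 (synonym Minos1b), named after a protein that shapes the inner mitochondrial membrane, had the highest post-meiotic mean of the 70 genes, 8.63 ± 0.21, below 9.19 ± 0.09 in meiosis and 10.94 ± 0.19 in mitosis. CG3038 (synonym dbeta3GnT), named as a sugar transferase, exceeded meiosis by 1.51 and post-meiosis by 2.98, and CG6621 (synonym TTC14) by 1.54 and 2.85.

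**Figure D3:**
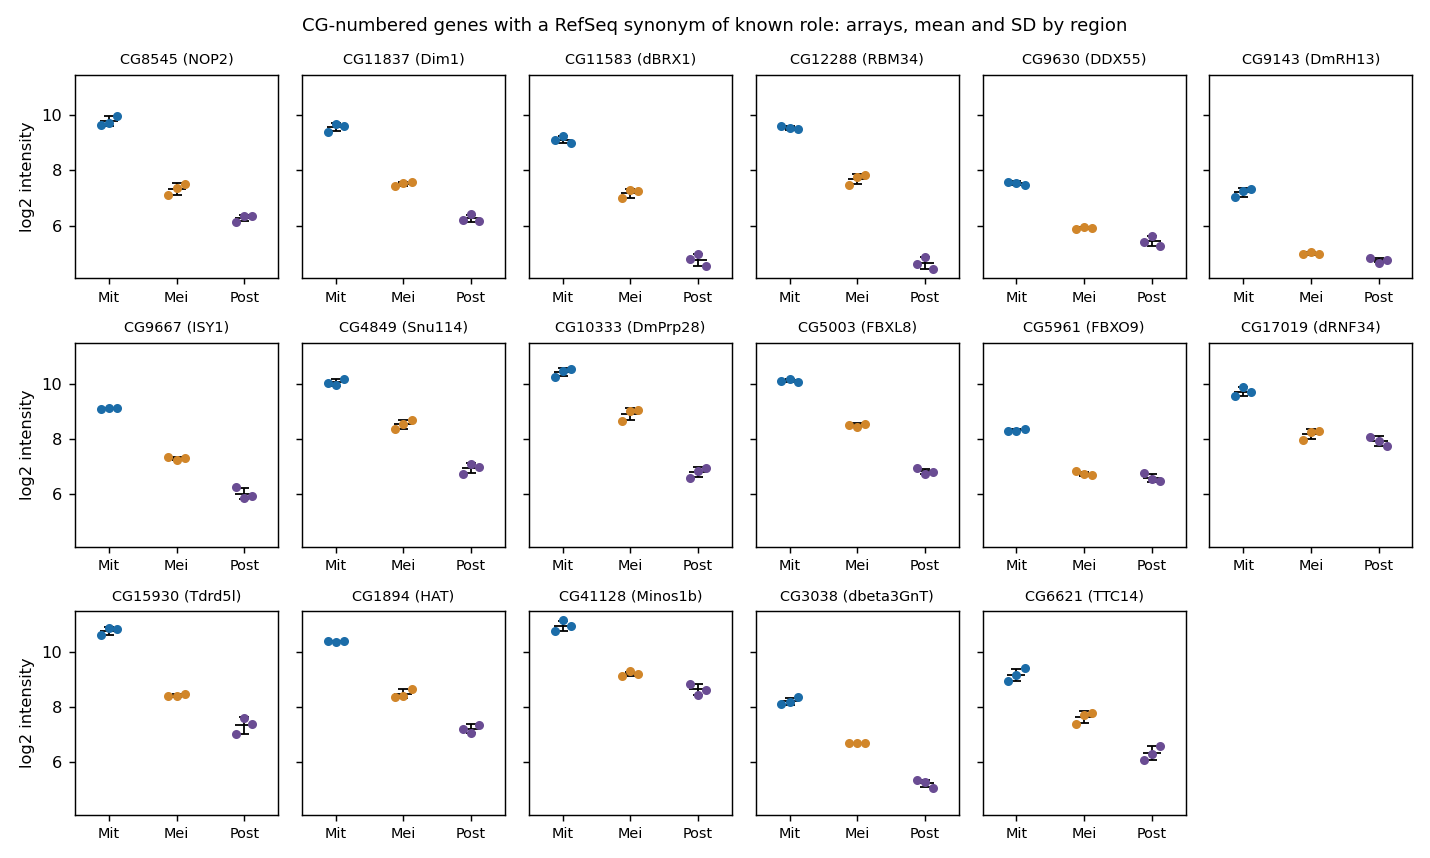
Log2 intensity of the 17 genes picked for the known role or protein family of a RefSeq synonym. Each phase has 3 points for the arrays and bars for the mean and SD (Mit, Mei and Post stand for mitosis, meiosis and post-meiosis). In every panel the 3 mitotic points lie above all others. The post-meiotic points lie far below the meiotic ones for CG12288 and CG11583, and close to them for CG9143, CG5961 and CG17019.

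Of the 53 genes not picked by synonym, 8 belonged to the first 12 of the ranking by the smaller difference. CG14545 read 7.72, 7.89 and 7.74 in mitotic, 5.30, 5.31 and 5.53 in meiotic and 5.07, 5.26 and 5.43 in post-meiotic arrays. Mitosis stood apart, at 2.41 above meiosis, while the arrays of meiosis and post-meiosis overlapped. CG2875 had the same form, with 7.79, 7.62 and 7.63 in mitotic, 5.19, 5.35 and 5.79 in meiotic and 5.44, 5.48 and 5.20 in post-meiotic arrays. Its later phases overlapped as well, and their means were 0.07 apart.

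CG13185 read 8.46, 8.88 and 9.07 in mitotic, 6.17, 6.53 and 6.86 in meiotic and 5.25, 5.21 and 5.14 in post-meiotic arrays. Its mitotic and meiotic arrays were spread widely, but the 3 phases did not overlap. CG32243 was among the brightest, at 11.72, 11.81 and 11.76 in mitotic, 9.43, 9.75 and 9.94 in meiotic and 8.03, 7.17 and 7.63 in post-meiotic arrays. Mitosis exceeded meiosis by 2.06 and meiosis exceeded post-meiosis by 2.10, and its post-meiotic SD of 0.43 was the largest of the 70 genes in that phase.

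The other 4 of this set also separated mitosis from both later phases. CG8675, CG14805 and CG10286 exceeded meiosis by 2.05, 2.03 and 2.03 and post-meiosis by 2.81, 2.57 and 3.24. CG3251 read 10.73, 10.75 and 11.06 in mitotic, 8.70, 8.87 and 8.96 in meiotic and 5.19, 5.52 and 5.81 in post-meiotic arrays. It combined a difference of 2.005 against meiosis with one of 5.34 against post-meiosis.

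The lowest values of post-meiosis minus meiosis were found in CG42857, CG43132, CG3251, CG12288, CG32625 and CG12477, which ran from -5.42 to -2.79. CG42857 had the highest mitotic mean of the 70 genes. It read 12.59, 12.49 and 12.33 in mitotic, 10.87, 10.84 and 10.99 in meiotic and 5.52, 5.24 and 5.68 in post-meiotic arrays. It was thus still bright in meiosis and below the array median in post-meiosis, with a mitotic mean 6.99 above the post-meiotic one.

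CG43132 read 12.01, 12.09 and 12.02 in mitotic, 10.17, 10.32 and 10.28 in meiotic and 5.61, 5.59 and 5.74 in post-meiotic arrays. It followed the same course, with a mitotic mean 6.39 above post-meiosis, which was again below the array median. CG32625 read 10.20, 10.32 and 10.25 in mitotic, 8.41, 8.41 and 8.33 in meiotic and 5.57, 5.35 and 5.72 in post-meiotic arrays. CG12477 read 11.21, 11.30 and 11.36 in mitotic, 9.15, 9.31 and 9.56 in meiotic and 6.61, 6.76 and 6.26 in post-meiotic arrays. In all 6 genes the 3 phases were separate, and the mitotic minus meiotic difference made up 22.5% to 41.1% of the mitotic minus post-meiotic one.

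Of the 70 genes, 12 were lower in post-meiosis than in meiosis by more than 2, and 2 of them, CG42857 and CG43132, by more than 4. Another 25 genes were lower by 1 to 2 and 13 by 0.5 to 1. In the other 20 the 2 later phases lay within 0.5 of each other, and in 6 of those post-meiosis was the higher. Several of these 20 had meiotic means already under the array median, such as CG4570 (4.78), CG7785 (4.98), CG9143 (4.99) and CG14545 (5.38). Others did not, such as CG4364 (8.36). Whether a dim meiotic mean limited a further fall was not tested. Over the 70 genes, the mitotic minus meiotic difference was a median of 64.4% of the mitotic minus post-meiotic one, from 22.5% in CG42857 to 122% in CG7518. Across the 70 genes the mitotic minus meiotic difference and the post-meiotic minus meiotic difference had an r of 0.15, a description only, since both are taken from the same meiotic means.

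The 6 genes in which post-meiosis was the higher were CG7518, CG9205, CG10341, CG10492, CG17233 and CG13398, by 0.40, 0.24, 0.18, 0.09, 0.07 and 0.01. CG7518 read 9.03, 8.49 and 8.93 in mitotic, 6.43, 6.56 and 6.93 in meiotic and 7.23, 7.03 and 6.86 in post-meiotic arrays. Its later phases overlapped in 1 array of each. CG9205 read 8.99, 9.31 and 9.32 in mitotic, 7.09, 7.17 and 7.12 in meiotic and 7.37, 7.46 and 7.25 in post-meiotic arrays. It was the one gene of the 6 whose 3 post-meiotic arrays all stood above its 3 meiotic arrays.

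CG13398 read 7.10, 7.26 and 7.06 in mitotic, 5.17, 6.06 and 5.65 in meiotic and 5.75, 5.64 and 5.51 in post-meiotic arrays. Its meiotic arrays spread over the whole range of its post-meiotic arrays, with an SD of 0.45 that was the largest of the 70 genes in any phase. It was also the gene nearest to the thresholds, at 1.51 against meiosis and 1.504 against post-meiosis.

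Next inside the thresholds were CG10333, CG3038 and CG5126, each 1.51 above meiosis. Just outside lay CG3862 and CG17683 at 1.497 and 1.496 against meiosis, CG5953 at 1.49 against post-meiosis and CG7239 at 1.49 against meiosis. CG5953 had a mitotic mean of 13.08, above that of every chosen gene, and means of 10.91 in meiosis and 11.59 in post-meiosis. CG3862, CG17683 and CG7239 had mitotic means of 8.23, 9.76 and 9.28.

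The dimmest of the chosen genes, CG7785 and CG4570, had mitotic means of 6.62 ± 0.37 and 6.76 ± 0.35 (SD, n = 3). CG7785 read 6.19, 6.82 and 6.84 in mitotic, 4.93, 4.90 and 5.11 in meiotic and 4.80, 4.91 and 4.81 in post-meiotic arrays. The first mitotic array was low in both genes, and the later phases lay close together and below the array median. The 0.37 of CG7785 was the largest SD in mitosis.

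The genes not yet given by name lay between these extremes. CG6324, CG12299 and CG9926 were among the 12 whose post-meiotic mean was more than 2 below meiosis. CG15019, CG34323, CG4119, CG4751, CG11180, CG11980, CG8858, CG14443, CG6724, CG14657, CG30349, CG5149, CG1910 and CG4554 were lower in post-meiosis by 1 to 2. CG5196, CG3436, CG14434, CG7326, CG3793, CG8679, CG3594, CG7741 and CG9346 were lower by 0.5 to 1. CG3511, CG7824, CG4364, CG11109, CG3847 and CG8289 were lower by 0.12 to 0.40.

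For 4 of the genes the array holds another probe set of the same symbol, which did not meet the thresholds. The chosen probe set of CG3436 was 1.58 higher in mitosis than in meiosis and 2.43 higher than in post-meiosis, against 1.42 and 2.17 for the other one. For CG4849 the chosen probe set was 1.53 and 3.11 higher, against 1.07 and 1.70, and for CG14443 it was 1.88 and 3.43 higher, against 0.64 and 0.71. The other probe sets of these 3 genes also had mitosis on top. All 3 missed the meiotic threshold, and only that of CG14443 missed the post-meiotic one too. The other probe set of CG14443 was dim, with a mean of 5.90 in mitosis. Why these differences were smaller was not tested.

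CG1894 was the exception. Its chosen probe set read 10.38, 10.37 and 10.39 in mitotic, 8.36, 8.40 and 8.66 in meiotic and 7.21, 7.04 and 7.36 in post-meiotic arrays. Its other probe set read 6.37, 6.37 and 6.496 in mitotic, 7.31, 7.30 and 6.71 in meiotic and 6.45, 6.56 and 6.39 in post-meiotic arrays. In the first the 3 phases were separate with mitosis on top, and in the second the meiotic arrays were the highest while mitosis and post-meiosis overlapped. The chosen probe set had differences of 1.91 (mitosis minus meiosis) and 3.18 (mitosis minus post-meiosis), against -0.69 and -0.06 for the other. The other probe sets of CG1894 and CG4849 are of a kind that can bind transcripts of more than one gene, and which transcripts the 2 probe sets of CG1894 measured was not tested.

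Among the 70 chosen probe sets, those of CG9205 and CG1910 carry the suffix of the kind that may bind other genes. Another 8 (CG2875, CG11109, CG3847, CG17233, CG11980, CG7518, CG7824 and CG3038) carry the suffix meant for several transcripts of a gene. RefSeq lists only 1 transcript for CG3847. The other 60 carry no such suffix.

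By the RefSeq table, 14 of the 69 matched genes were X-linked (20.3%, against 17.1% of the 5068 other CG-numbered genes), 15 lay on 2L (21.7% against 18.5%), 12 on 2R (17.4% against 19.5%), 7 on 3L (10.1% against 20.3%) and 21 on 3R (30.4% against 24.3%). None lay on chromosome 4, which holds 13 of the other genes. These shares were not tested.

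Among the 69 chosen genes matched in RefSeq, no 2 were direct neighbours in the order of protein-coding genes. Of the 124 measured genes beside them, 7 met the same thresholds (5.65%), against 296 of the 11983 measured genes (2.47%). The 296 include chosen genes, and these shares were not tested. The 7 were Sas10 beside CG15930, Chro beside CG11109, Pdcd4 beside CG32625, grau beside CG9346, RfC38 beside CG4751, Fcp1 beside CG3511 and Polr3C beside CG5961. All 7 have a name other than a CG number. Chro, a chromosome and spindle protein, exceeded meiosis by 2.79 and post-meiosis by 2.37, and RfC38, a subunit of the complex that loads the replication clamp, by 1.83 and 2.61. The neighbours as a whole had median differences of 0.15 against meiosis and 0.42 against post-meiosis, and over all measured genes the medians were -0.04 and -0.16.

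Lists of named genes show what else was high in the mitotic region, with 1 probe set per gene, and their counts stand beside the shares of all probe sets, 26.3% higher and 24.3% lower against meiosis and 29.5% higher and 49.6% lower against post-meiosis. Of the 17 stem cell and spermatogonia genes, 15 were higher in mitosis than in meiosis and 2 did not pass (limma, adjusted p under 0.05), with a median difference of 1.33, and all 17 were higher than in post-meiosis with a median of 3.41. The largest were nanos, a translational repressor that maintains germline stem cells (3.20 above meiosis), piwi, which with small RNAs silences transposons (2.90), zpg, a germline gap junction protein (2.89), and aub, another protein of the transposon pathway (2.54). Of the 17, 8 met both thresholds used for the CG-numbered genes.

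The 13 measured ribosome biogenesis genes were all higher in mitosis than in both later phases. Their median differences were 1.74 against meiosis and 2.17 against post-meiosis, and 7 met both thresholds. Nopp140, a nucleolar chaperone, NHP2 and Nop60B, parts of the complex that modifies uridines in ribosomal RNA, and Nop56, a partner of methylation guide RNAs, were 2.62, 2.19, 2.14 and 2.10 above meiosis.

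Of 18 measured DNA replication genes, 15 were higher in mitosis than in meiosis, 1 was lower and 2 did not pass, with a median difference of 1.12, and 16 were higher and 2 lower than in post-meiosis with a median of 1.98. CycE, the cyclin of entry into S phase, was 2.80 above meiosis, and 5 of the 18 genes met both thresholds. The medians of the 70 CG-numbered genes, 1.79 and 2.86, were fixed at 1.5 or more by their choice.

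Spermatocyte genes were mostly higher in mitosis than in post-meiosis and went both ways against meiosis, and spermatid genes were lower in mitosis than in both. Of 15 measured spermatocyte genes, 6 were higher in mitosis than in meiosis, 5 lower and 4 did not pass (median 0.17, or -0.08 with cyclic loess), and 14 were higher and 1 lower in mitosis than in post-meiosis (median 2.74). All 10 measured spermatid genes were lower in mitosis than in meiosis (median -1.15) and than in post-meiosis (median -1.48). None of these 25 genes met both thresholds.

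**Figure D4:**
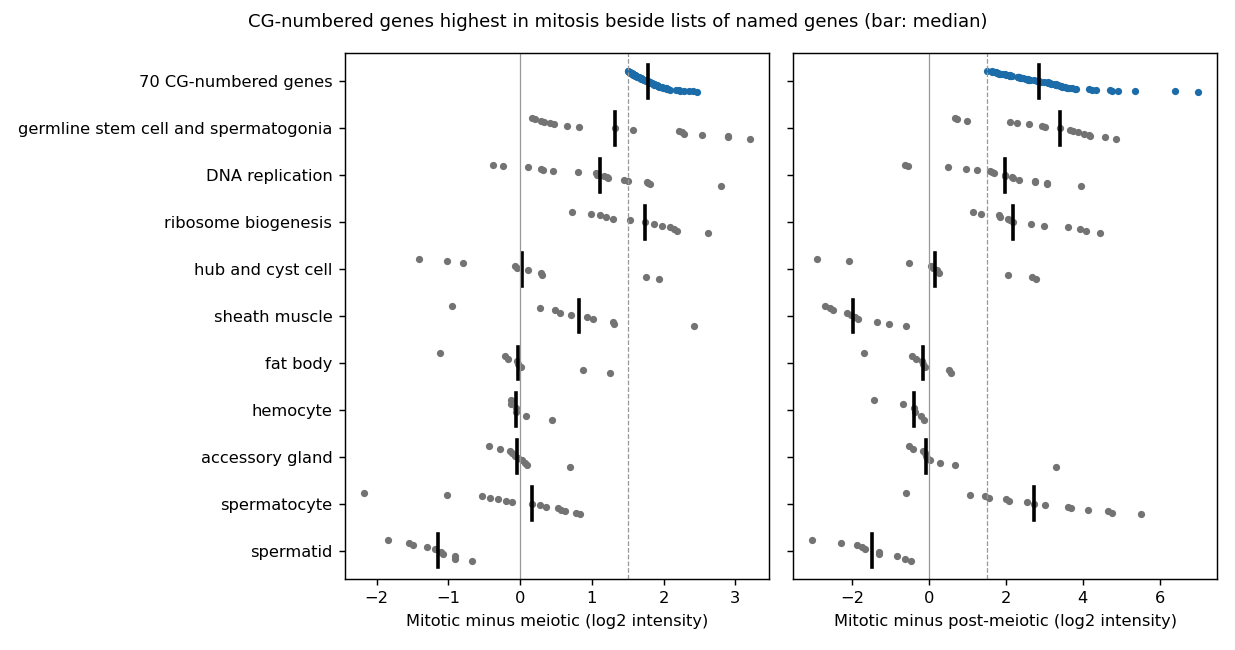
Mitotic minus meiotic difference (left) and mitotic minus post-meiotic difference (right), both in log2 intensity, for the 70 chosen genes and for the measured genes of 10 lists, 1 point per gene with the median as a bar and the threshold of 1.5 as a dashed line. Ribosome biogenesis, spermatogonia and DNA replication genes lie mostly to the right of 0 in both panels, sheath muscle genes mostly to the right in one and to the left in the other, and spermatid genes to the left in both.

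By list median, sheath muscle differed most between the regions among the lists of somatic cells. Of 10 measured sheath muscle genes, 8 were higher in mitosis than in meiosis, 1 was lower and 1 did not pass (median 0.82), and all 10 were lower in mitosis than in post-meiosis (median -1.97). The mean level of this list over an array was 6.91 to 7.29 in mitosis, 6.23 to 6.37 in meiosis and 8.87 to 9.17 in post-meiosis. Mlc1, a myosin light chain of muscle, had differences of 2.42 (mitosis minus meiosis) and -2.49 (mitosis minus post-meiosis). The part of sheath cells in the CG-numbered differences was not tested, and none of the 10 muscle genes met both thresholds.

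Of 10 measured hub and cyst cell genes, 4 were higher and 3 lower in mitosis than in meiosis, and the same numbers held against post-meiosis, counts too small to set apart from the shares of all probe sets. zfh1, a transcription factor present in somatic stem cells and early cyst cells, was 1.76 above meiosis and 2.05 above post-meiosis. It was the one gene of the list to meet both thresholds. ImpL2 was 1.93 above meiosis but only 0.11 above post-meiosis. The genes so and CadN were lower in mitosis than in both other phases. Their differences against meiosis and post-meiosis were -1.41 and -2.09 for so, and -1.02 and -0.51 for CadN. The mean level of the list was 7.33 to 7.44 in mitosis, 7.26 to 7.29 in meiosis and 7.07 to 7.16 in post-meiosis, and its median differences of 0.03 and 0.16 changed sign under another scaling, to -0.03 with centred arrays and to -0.06 with cyclic loess. Whether any of the 70 genes is expressed in cyst cells or the hub was not tested.

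Few fat body, hemocyte and accessory gland genes were called against meiosis. Of 8 fat body genes, 2 were higher and 1 was lower in mitosis than in meiosis, of 6 hemocyte genes 0 passed in limma in either direction (1 had an unadjusted p under 0.05), and of 10 accessory gland genes 1 was higher and 2 lower. Against post-meiosis the counts were 1 higher and 3 lower, 0 higher and 4 lower, and 3 higher and 2 lower. The mean levels in mitosis were 7.18 to 7.27, 5.39 to 5.66 and 4.95 to 5.04.

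Within a phase the 3 replicates of the 70 genes differed more than those of a typical probe set. The median SD of the genes was 0.114 in mitotic, 0.114 in meiotic and 0.182 in post-meiotic arrays, against 0.0861, 0.0833 and 0.135 over all probe sets. In mitosis and meiosis most of the 70 genes were also brighter than the median probe set. The SDs were not compared at like intensity. Many of the genes moved together between replicates. In the first meiotic array 5 of the 70 genes were above their meiotic mean (median deviation -0.11), in the second 49 (median 0.04) and in the third 62 (median 0.08).

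The mitotic arrays had median deviations of -0.06, 0.05 and 0.01, with 10, 50 and 41 of the 70 genes above their mean. The post-meiotic arrays had 0.06, -0.01 and -0.06, with 48, 34 and 26 genes above it. In the 3 meiotic arrays, beside the -0.11, 0.04 and 0.08 of the CG-numbered genes, the 17 spermatogonia genes had median deviations of -0.08, -0.0038 and 0.06. The medians over all probe sets were 0.013, -0.0087 and -0.0016 in those arrays. They were 0.0023, -0.0033 and 0.0010 in the mitotic and -0.0097, 0.0070 and -0.0127 in the post-meiotic arrays. Counts above the phase mean were not taken over all probe sets or at like intensity. Whether the shifts are particular to the 70 genes, and what the shared deviations come from, was not tested.

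**Figure D5:**
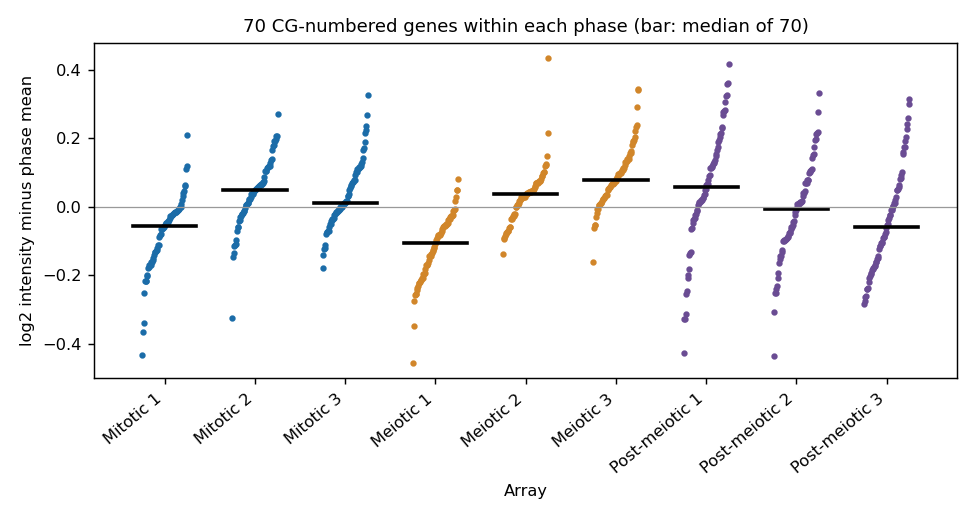
Log2 intensity of each of the 70 genes minus its mean over the 3 arrays of the phase, 1 point per gene and 1 column per array, with the median of the 70 genes as a bar. The first mitotic and first meiotic arrays have medians of -0.06 and -0.11 and the other arrays lie between -0.06 and 0.08.

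With each array in turn left out, the rule took 65 to 77 genes, and 61 of the 70 were taken every time. The 9 that were not were CG5149, CG17019, CG6324, CG6621, CG4849, CG5126, CG3038, CG10333 and CG13398, and the last 2 were each missed in 3 of the 9 cases. Under cyclic loess the rule took 48 genes, of which 42 were among the 70, and the lowest differences of a gene of the 70 were then 1.23 against meiosis and 1.01 against post-meiosis.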

How the data were processed

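Total RNA of 9 wild-type testis samples, 3 per region, was hybridized to Affymetrix arrays. Intensities were deposited on the log2 scale after RMA background correction, and the authors had also applied quantile normalization, without pooling replicates. Quantile normalization gives all arrays nearly the same distribution, so a change shared by most genes would not be seen, and RMA compresses differences of dim probe sets. The number of arrays limits the precision.

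Of 18952 probe sets, 183 controls were left out. All 18769 others were fitted with limma 3.58.1 (lmFit and eBayes, R 4.3.3) in 1 model with 3 phase means, and p was adjusted by Benjamini-Hochberg with a threshold of 0.05. Symbols were those of the array annotation (13647 probe sets with a single one). Synonyms, arms and neighbours came from the RefSeq gene table (assembly Release 6 plus ISO1 MT), matched by gene identifier. Gene order in that table gave the neighbours, and no position is printed, as the build of the arrays was not given in the sources used here. Gene lists took the brightest probe set of a gene, and 12 listed symbols had no probe set of their own there. The fit was tested on simulated data before use. Tables were handled with pandas 2.3.3 in Python 3.11.15.

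The thresholds, the genes and the 10 lists were chosen with earlier results of these data known. Named genes are the 12 with the largest smaller difference, the 6 highest and 6 lowest in post-meiosis minus meiosis, the 4 on each side of the threshold, the 4 leading X-linked genes, genes with another probe set, the widest spreads, up to 4 per list and the 4 leading genes with other names. Those picked by synonym, the neighbours and the genes listed by range were named after their values were seen. Alternatives were centred arrays, cyclic loess, a mean log2 intensity of at least 6, an intensity trend, a replicate block, other thresholds and leaving out each array. Comparisons of protein sequence were not run.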

Additional observations from a re-analysis of the deposited data

How the results depend on the processing

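Thresholds of at least 1 and of at least 2 took 241 and 12 CG-numbered probe sets in place of 70, and 43 had their lowest mitotic array at least 1.5 above the highest array of each other phase. With cyclic loess the medians of the 70 genes were 1.61 against meiosis and 2.52 against post-meiosis, in place of 1.79 and 2.86, 23 of the genes were under the meiotic and 9 under the post-meiotic threshold, and 48 probe sets were taken. Centring each array took 62, phase medians 70, probe sets without shared suffixes 60 and those of a mean log2 intensity of at least 6 gave 65. Leaving out each array in turn gave 65 to 77 genes, medians of 1.73 to 1.82 and 2.82 to 2.92, 4651 to 5164 probe sets higher in mitosis than in meiosis, 5396 to 5587 higher than in post-meiosis and 14 to 15 spermatogonia genes higher than in meiosis.

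The share of higher among all called probe sets in mitosis against post-meiosis was 37.3% as deposited, 42.6% with centred arrays and 49.7% with cyclic loess, and the median of all probe sets was -0.21, -0.13 and -0.01. The 9309 probe sets lower in mitosis than in post-meiosis became 7819 with centred arrays and 5873 with cyclic loess. Of the hub and cyst cell genes, 2 in place of 4 were higher than in meiosis with centred arrays and 5 in place of 3 lower than in post-meiosis with cyclic loess, which also left 0 in place of 2 accessory gland genes lower than in post-meiosis. Same-numbered arrays of different phases had correlations of their deviations from -0.0862 to 0.36, and differently numbered ones from -0.22 to 0.15. The highest was that of mitotic replicate 1 with meiotic replicate 1 (0.36). The numbers were not taken to pair samples, and a shared effect of replicate 1 was not tested. With the replicate block 4961 probe sets were higher in mitosis than in meiosis (4943 without it), 5559 higher than in post-meiosis (5541) and 15 spermatogonia genes higher than in meiosis (15).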
